A study of Homo with 4 samples.

Results

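The genes described are the subunits of the hypoxia-inducible factors (HIFs) and a set of hypoxia response genes that act outside glycolysis. There are 10 of them among the 20263 genes in the deposited tables: HIF1A, EPAS1, ARNT, VEGFA, CA9, BNIP3, NDRG1, ADM, EGLN3 and P4HA1. They were listed by name, with no threshold on these values, and were found by matching the Ensembl gene identifiers to RefSeq symbols by GRCh38 position. The members, and the gene lists set beside them below, were chosen with earlier results of these data known. All 10 were matched, and 8 of them had enough reads to be among the 13379 genes tested.

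RNA was sequenced from H1299, an established line of human non-small cell lung cancer cells, which carried a lentiviral short hairpin against IGF2BP3 (shIGF2BP3, genotype given as IGF2BP3 knockdown, n = 2) or a control hairpin (shCtrl, genotype given as WT, n = 2). IGF2BP3 is an RNA-binding protein that reads N6-methyladenosine and is known for stabilizing its target mRNAs. All 4 libraries came from lentivirus-infected cells kept in 1 culture medium with serum, and the labels give no low-oxygen treatment. The labels number the biological replicates 1 and 2 in both groups, the deposited columns number those of shIGF2BP3 2 and 3, and it is not stated whether these libraries carry the same hairpin, so their spread may include a difference between hairpins.

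HIF is a dimer of an oxygen-regulated alpha subunit and the stable partner ARNT. In oxygenated cells the EGLN prolyl hydroxylases mark the alpha subunit, and the VHL ubiquitin ligase complex then destroys it, so the factor is controlled mainly at the protein level. When oxygen is low the dimer binds hypoxia response elements and switches on genes for blood vessel growth, pH control, mitophagy, collagen maturation and glycolysis, and in lung tumors these genes are widely used as a readout of low oxygen. The question addressed was whether the hypoxia response genes outside glycolysis were lower in shIGF2BP3 than in shCtrl, at the level of mRNA, since these libraries hold no measure of HIF protein.

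The total count ranged from 29709686 to 34817513 per library, and mitochondrially encoded genes took from 9.11% to 17.0% of it. Levels are given as CPM (counts scaled to a common library size after TMM normalization) for comparisons between libraries, and as FPKM, which is also scaled by length, for comparisons between genes. Libraries within a group differed beyond sampling noise, with a common biological coefficient of variation of 22.8%. The targeted gene IGF2BP3 was at 41.1 and 32.9 CPM in shCtrl and at 26.4 and 24.8 CPM in shIGF2BP3, a log2 fold change of -0.53 (SE 0.17) with an unadjusted p of 0.0244 and an adjusted p of 0.472 (edgeR quasi-likelihood test, Benjamini-Hochberg over all genes tested). Its level was 69.1% of control, a 1.45-fold fall, so the targeted gene itself did not reach the 1.5-fold threshold of the study in this fit. Leaving out replicate 1 of shCtrl gave a log2 value of -0.36, and the gene overlaps another on the opposite strand. Of the epithelial markers checked against the labelled cell type, KRT8 (699 to 926 CPM) and KRT18 (1044 to 1398 CPM) were abundant, whereas EPCAM, CDH1 and KRT19 each had at most 12 counts in a library. Of the mesenchymal markers, the filament VIM was at 4338 to 7100 CPM, whereas the others were low or absent. COL1A1 was at 0.354 to 1.07 CPM and DCN at 0.106 to 0.561 CPM. COL1A2 had at most 2 counts in a library and LUM had 0 in all of them. The endothelial markers PECAM1, CDH5 and VWF had too few counts to test, and of the leukocyte markers only CD68 could be tested, at 44.4 to 49.9 CPM. In RNA from whole cultures, fewer expressing cells and less RNA per cell cannot be told apart.

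No member, in either direction, passed the study's thresholds of a 1.5-fold change and an unadjusted p of 0.05. Among all genes tested, 2.78% were called lower and 2.54% higher at these thresholds. The numbers of members at an adjusted p under 0.05 and at an unadjusted p of at most 0.05 were both 0 in the edgeR fit, and DESeq2 gave 0 at an adjusted p under 0.05 among the members it adjusted. Over all genes edgeR gave 0 at that adjusted level, with 685 lower and 726 higher at an unadjusted p of at most 0.05, and DESeq2 gave 78 lower (0.696% of those with an adjusted p) and 77 higher (0.687%) at the adjusted level. Of the 8 members tested, 5 had a log2 fold change below 0, against 50.2% of all genes tested. Their median log2 fold change was -0.14, and that of all genes was -0.0019. Without replicate 1 of shCtrl the members' median was 0.11, so its sign rested on that library. Both shIGF2BP3 libraries lay below both shCtrl libraries for EPAS1 and BNIP3, 2 of 8 members, against 23.5% of all genes, and no member lay above, against 23.3%.

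**Figure D1:**
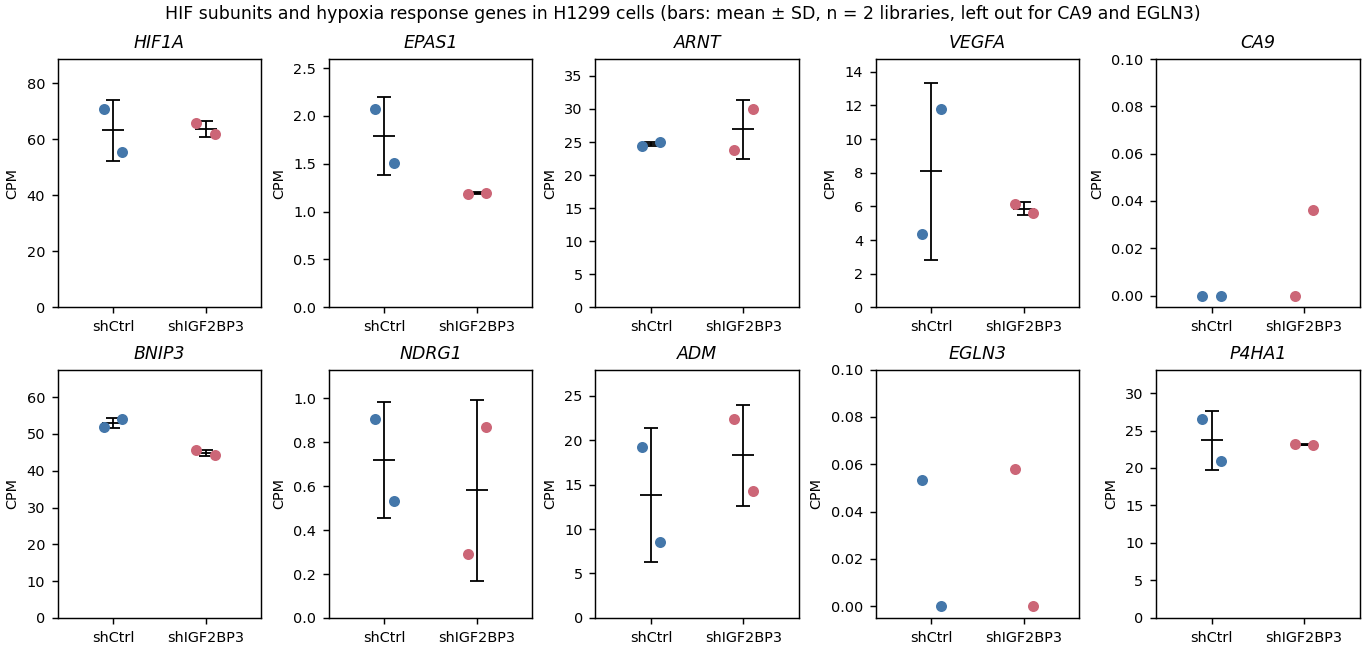
Each panel plots 1 gene in CPM (counts scaled to a common library size, linear axis) in the 2 shCtrl and 2 shIGF2BP3 libraries, as points with the mean ± SD. Only EPAS1 and BNIP3 show both shIGF2BP3 points below both shCtrl points, the shCtrl points of VEGFA and ADM stand far apart, and CA9 and EGLN3 stay at 0 to 2 counts, so no bars are drawn for them.

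The factor itself was described first by its oxygen-regulated subunits. HIF1A (ENSG00000100644, chromosome 14, 61695540 to 61748259, plus strand) encodes HIF-1 alpha. It was at 70.9 and 55.4 CPM in shCtrl and at 65.8 and 61.7 CPM in shIGF2BP3. Both shIGF2BP3 values lay between those of the shCtrl libraries. On the log2 scale the difference was 0.01 (SE 0.17, 95% interval -0.40 to 0.43) with an adjusted p of 0.981 (edgeR, Benjamini-Hochberg). This interval leaves out a 1.5-fold fall. The sign of so small a difference was negative with library totals (-0.07), with library totals without mitochondrial genes (-0.02) and with limma on the FPKM values (-0.05).

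EPAS1 (ENSG00000116016, chromosome 2, 46296608 to 46386703, plus strand) encodes HIF-2 alpha, the other major oxygen-regulated subunit. It had 78 and 51 counts in shCtrl and 41 and 33 in shIGF2BP3, which is 2.07 and 1.51 CPM against 1.19 and 1.198 CPM. The groups did not overlap, and the shIGF2BP3 mean was 66.6% of control. The log2 fold change of -0.59 (SE 0.31, 95% interval -1.36 to 0.19) was the largest among the members in size, with an unadjusted p of 0.111 and an adjusted p of 0.519 (edgeR, Benjamini-Hochberg). It therefore passed the fold threshold and not the p threshold. The interval holds both no difference and a fall of more than 1.5-fold, so these libraries do not settle whether EPAS1 was lower. Leaving out replicate 1 of shCtrl gave -0.33, and leaving out its replicate 2 gave -0.80.

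ARNT (ENSG00000143437, chromosome 1, 150809705 to 150876768, minus strand), the constitutive partner of both alpha subunits, was at 24.5 and 24.9 CPM in shCtrl and at 23.8 and 30.0 CPM in shIGF2BP3. One shIGF2BP3 library was below both controls and the other above both. This gave a log2 fold change of 0.12 (SE 0.18, 95% interval -0.32 to 0.57), with an adjusted p of 0.8002 (edgeR, Benjamini-Hochberg). By FPKM, HIF1A was the most abundant of the 3 subunits in every library (11.8 to 16.7), ARNT was next (4.47 to 5.27) and EPAS1 was far lower (0.180 to 0.366), with no overlap among the 3 genes. In shCtrl their mean FPKM stood at the 69.6, 45.6 and 8.71 percentiles of all genes tested.

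The targets were then taken by role, beginning with secreted factors. VEGFA (ENSG00000112715, chromosome 6, 43770213 to 43786487, plus strand), the main angiogenic growth factor, was at 4.36 and 11.8 CPM in shCtrl and at 6.14 and 5.59 CPM in shIGF2BP3. The controls differed from each other more than either did from the knockdown, and the shIGF2BP3 values lay between them. The log2 fold change was -0.46 (SE 0.47, 95% interval -1.64 to 0.72), with an adjusted p of 0.715 (edgeR, Benjamini-Hochberg). The direction depended on which control library was kept. Without replicate 1 of shCtrl it was -1.004 on the log2 scale (unadjusted p of 0.0114) and VEGFA was called lower, while without replicate 2 it was 0.43 (unadjusted p of 0.167).

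ADM (ENSG00000148926, chromosome 11, 10304680 to 10307397, plus strand) encodes adrenomedullin, a secreted vasodilator peptide. It was at 19.2 and 8.53 CPM in shCtrl and at 22.3 and 14.3 CPM in shIGF2BP3. The groups overlapped, with 1 low control library. On the log2 scale the difference was 0.40 (SE 0.43, 95% interval -0.67 to 1.48), with an adjusted p of 0.725 (edgeR, Benjamini-Hochberg). Without replicate 1 of shCtrl it was 1.11 (unadjusted p of 0.0363) and ADM was called higher, and without replicate 2 of shCtrl it was -0.06. The 2 secreted targets were thus at opposite ends in the control pair, VEGFA high and ADM low in replicate 2.

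BNIP3 (ENSG00000176171, chromosome 10, 131966455 to 131982013, minus strand), a mitochondrial outer membrane protein that triggers mitophagy, had the smallest standard error of the members. It was at 52.0 and 54.0 CPM in shCtrl and at 45.5 and 44.3 CPM in shIGF2BP3. The groups did not overlap, and the shIGF2BP3 mean was 84.7% of control. This is a log2 fold change of -0.24 (SE 0.13, 95% interval -0.56 to 0.08) with an unadjusted p of 0.118 and an adjusted p of 0.524 (edgeR, Benjamini-Hochberg). With each library left out in turn it stayed between -0.26 and -0.21. The difference was short of the test's threshold. The interval leaves out a 1.5-fold fall only narrowly and also holds no difference, so the size of any fall is not settled.

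P4HA1 (ENSG00000122884, chromosome 10, 73007217 to 73096974, minus strand) encodes a catalytic alpha subunit of collagen prolyl 4-hydroxylase. It was at 26.5 and 20.9 CPM in shCtrl and at 23.2 and 23.1 CPM in shIGF2BP3, with the knockdown libraries between the controls. The log2 fold change was -0.04 (SE 0.18, 95% interval -0.49 to 0.41), with an adjusted p of 0.949 (edgeR, Benjamini-Hochberg). NDRG1 (ENSG00000104419, chromosome 8, 133237171 to 133302022, minus strand), a stress-response gene of the N-myc downstream regulated family, had 34 and 18 counts in shCtrl and 10 and 24 in shIGF2BP3, which is 0.904 and 0.531 CPM against 0.290 and 0.871 CPM. These groups overlapped, and the log2 fold change of -0.34 (SE 0.63, 95% interval -1.92 to 1.24, adjusted p of 0.846 by the same test) had the widest interval of the members.

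CA9 and EGLN3, often among the most strongly induced genes in low oxygen, were close to absent in both groups. CA9 (ENSG00000107159, chromosome 9, 35673856 to 35681159, plus strand), a cell-surface carbonic anhydrase that controls pH, had 0 counts in 3 libraries and 1 count in replicate 2 of shIGF2BP3. EGLN3 (ENSG00000129521, chromosome 14, 33924231 to 34222877, minus strand), the inducible HIF prolyl hydroxylase, had 2 counts in replicate 1 of each group and 0 in replicate 2 of each group. A count of 0 allows up to 3 counts, which is 0.0798 to 0.109 CPM in these libraries by counting error alone. Both genes lay at or under this limit in every library and were not tested, so no direction can be read for them. CA9 overlaps another gene on the opposite strand (ENSG00000137135), and whether the counting used strand is not given in the sources used here.

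By mean FPKM in shCtrl the order of the members was BNIP3, HIF1A, ADM, P4HA1, ARNT, VEGFA, EPAS1, NDRG1, EGLN3 and CA9. BNIP3 and HIF1A overlapped in both groups and so could not be ordered, and neither could EGLN3 and CA9. ADM and P4HA1 overlapped in shCtrl and did not in shIGF2BP3, where ADM (7.98 to 11.9 FPKM) was above P4HA1 (6.46 to 7.26 FPKM). EPAS1 and NDRG1 overlapped in shIGF2BP3 and did not in shCtrl. The remaining neighbours did not overlap in either group.

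How much of a fall the data leave room for was read from the 95% intervals. They left out a 1.5-fold fall for 4 of the 8 members tested (HIF1A, ARNT, BNIP3 and P4HA1), against 56.1% of all genes tested. Smaller falls stayed inside these intervals, whose lower limits were -0.40, -0.32, -0.56 and -0.49 in the same order. The targeted gene IGF2BP3 was itself only at -0.53, so these 4 genes are not shown to be unchanged. For the other 4 (EPAS1, VEGFA, NDRG1 and ADM) a 1.5-fold fall was inside the interval. EPAS1 and NDRG1 had at most 78 counts in a library, and VEGFA and ADM had SDs of 5.26 and 7.53 CPM between the controls.

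**Figure D2:**
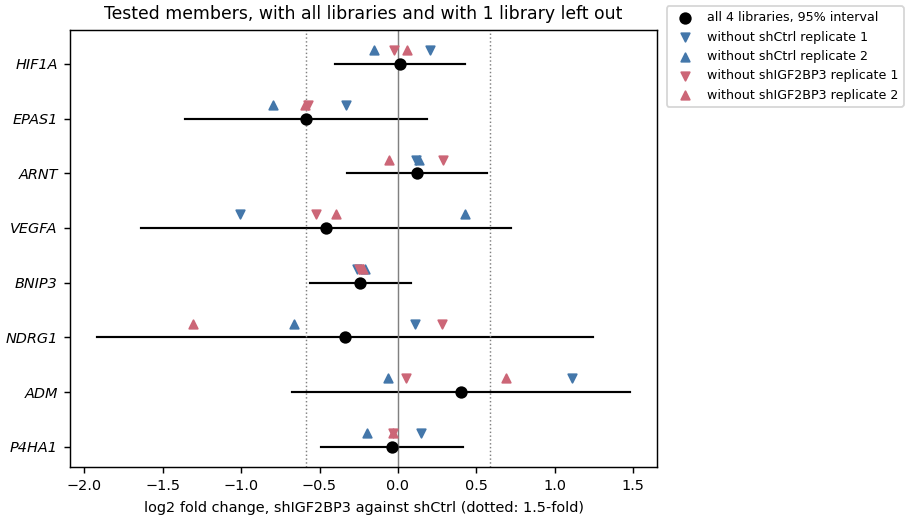
For each of the 8 members tested, the black point and line give the log2 fold change of shIGF2BP3 against shCtrl with its 95% interval, and the triangles give the value with 1 library left out. All 8 intervals cross 0, and the triangles of VEGFA (-1.004 to 0.43), ADM (-0.06 to 1.11) and NDRG1 (-1.30 to 0.28) fall on both sides of it, while those of BNIP3 stay between -0.26 and -0.21.

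The deposited values are per transcript, so the members were also looked at by isoform. Transcripts of a gene share most exons, so these estimates are less certain than the gene sums, and they were not tested. For HIF1A, ENST00000337138 held 49.7% and 52.1% of the gene's FPKM in shCtrl and 79.4% and 67.7% in shIGF2BP3. The transcript ENST00000394997 held 39.7% and 38.6% in shCtrl and 14.1% and 27.7% in shIGF2BP3. The total of HIF1A thus differed little while the estimated shares of its main transcripts did not overlap between the groups. How often transcript shares separate in this way over all genes was not counted. For gene sums, both shIGF2BP3 libraries lay below both controls in 23.5% of genes tested and above in 23.3%. The HIF1A shares are therefore a description only.

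For VEGFA the spread between controls lay in 1 of the 13 transcripts listed above 0. ENST00000372077 was at 0.384 and 2.44 FPKM in shCtrl and at 1.06 and 0.231 FPKM in shIGF2BP3. The other VEGFA transcripts together had 119 and 117 counts in shCtrl and 92 and 131 in shIGF2BP3, which is 3.17, 3.45, 2.67 and 4.76 CPM. Without that transcript the controls were close to each other and the groups still overlapped.

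ADM moved among 3 main transcripts from library to library. ENST00000278175 held 59.7% and 24.5% of the gene's FPKM in shCtrl and 3.94% and 46.1% in shIGF2BP3, and ENST00000528655 held 12.1%, 6.98%, 68.5% and 6.80% in the same order. For P4HA1, ENST00000394890 was at 1.10 and 1.21 FPKM in shCtrl and at 1.23 and 4.62 FPKM in shIGF2BP3, so 3 libraries were alike and 1 was high. In the high library, replicate 2 of shIGF2BP3, ENST00000373008 and ENST00000307116 were at 0.119 and 0.132 FPKM, against at least 1.205 and 1.81 FPKM in the other libraries. The remaining members were carried by 1 main transcript, with 88.2% of FPKM over all libraries in ENST00000368636 for BNIP3, 81.8% in ENST00000358595 for ARNT and 100% in ENST00000263734 for EPAS1. A second ARNT transcript, ENST00000505755, held 21.7% and 0% of the gene's FPKM in shCtrl and 20.6% and 0% in shIGF2BP3.

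**Figure D3:**
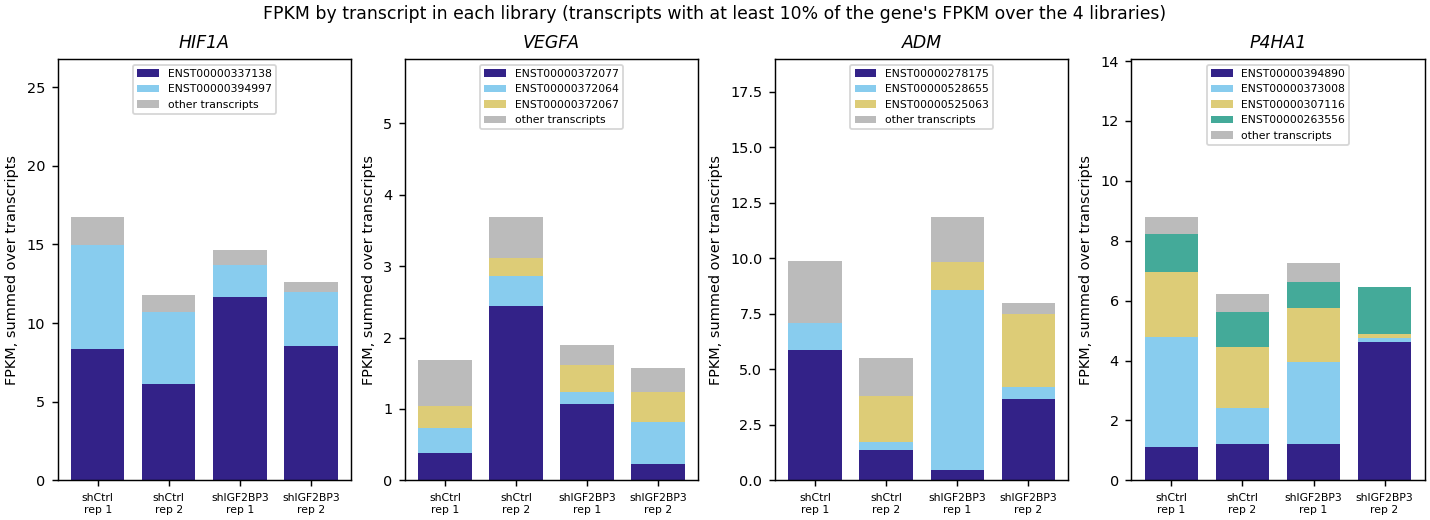
Stacked bars give FPKM per library for HIF1A, VEGFA, ADM and P4HA1, split into the transcripts with at least 10% of the gene's FPKM over the 4 libraries and all others in grey. The HIF1A bars are of like height while the share of ENST00000394997 is smaller in both shIGF2BP3 libraries, and the tall VEGFA bar of shCtrl replicate 2 is mostly ENST00000372077. Differences in transcript shares were not tested.

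The regulators of HIF were examined next, in a list of 13 oxygen-sensing and HIF degradation genes that could all be tested. At the thresholds of the study 1 was called lower and 0 were called higher, against 2.78% and 2.54% of all genes, and the list's median log2 fold change was -0.10. The gene called was VHL, the substrate receptor that recognizes hydroxylated HIF alpha. VHL was at 24.3 and 15.7 CPM in shCtrl and at 12.3 and 8.57 CPM in shIGF2BP3, with no overlap. Its log2 fold change was -0.94 (SE 0.30), with an unadjusted p of 0.0226 and an adjusted p of 0.472 (edgeR, Benjamini-Hochberg). Without replicate 1 of shCtrl it was -0.59 (unadjusted p of 0.121), and without replicate 2 of shIGF2BP3 it was -0.70 (unadjusted p of 0.0815), so the call rested on both of those libraries. Its main transcript, ENST00000256474, was at 4.93 and 3.47 FPKM in shCtrl and at 2.86 and 1.82 FPKM in shIGF2BP3. It held 77.7% of the gene's FPKM in replicate 1 of shCtrl and 100% in each of the other libraries. These are thus largely the same reads as the gene sum and no separate evidence. The other VHL transcript had 157 counts in replicate 1 of shCtrl and 0 in the other libraries. At an unadjusted p of at most 0.05, irrespective of fold, 2 genes of the list were lower (VHL and USP20) and 1 was higher (RBX1), against 5.12% and 5.43% of all genes. RBX1, the RING subunit of the same ubiquitin ligase complex as VHL, was at 79.5 and 78.7 CPM in shCtrl and at 105 CPM in both shIGF2BP3 libraries (log2 fold change of 0.40, unadjusted p of 0.0195). USP20, a deubiquitinase, was at 24.5 and 27.9 CPM against 20.4 and 15.7 CPM (log2 fold change of -0.54, unadjusted p of 0.0371). Neither reached a 1.5-fold change, and the adjusted p of both was 0.472 (edgeR, Benjamini-Hochberg). EGLN1, the main prolyl hydroxylase in oxygenated cells, had 41.7 and 35.9 CPM in shCtrl against 38.1 and 36.1 CPM (log2 fold change of -0.06, unadjusted p of 0.685). HIF1AN, the asparaginyl hydroxylase that blocks HIF alpha from its coactivators, had 65.4 and 58.8 CPM against 65.0 and 61.8 CPM (log2 fold change of 0.03, unadjusted p of 0.836, with a negative sign under library totals with or without mitochondrial genes and under limma on FPKM). Of 6 further HIF subunits and coactivators, HIF3A had 0 counts in every library, ARNT2 had at most 10 counts in a library, and none of the 4 tested (EP300, CREBBP, CITED2 and CITED4, at log2 fold changes from -0.43 to 0.51) was called.

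A list of 45 further hypoxia targets outside glycolysis gave 42 genes matched by position and 38 tested, while FLT1, EPO, CA12 and CP had too few counts. Of the 38, 25 had a log2 fold change below 0 and 13 above, with a median of -0.09, and 50.2% of all genes tested were below 0. At the thresholds of the study 1 was called lower and 1 higher, against 2.78% and 2.54% of all genes. Both shIGF2BP3 libraries lay below both controls for 12 of the 38 and above both for 6, against 23.5% and 23.3% of all genes. The extremes were the transferrin receptor TFRC (log2 fold change of -0.84, unadjusted p of 0.186) and the zinc finger gene ZNF395 (0.66, unadjusted p of 0.556), and the groups overlapped for both.

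The target called lower was DDIT4, which encodes REDD1, a stress-induced inhibitor of mTORC1. DDIT4 was at 31.2 and 30.4 CPM in shCtrl and at 19.3 and 16.0 CPM in shIGF2BP3. The controls were within 1 CPM of each other and the knockdown libraries were well below them. Its log2 fold change was -0.80 (SE 0.17, 1.75-fold lower), with an unadjusted p of 0.00407 and an adjusted p of 0.472 (edgeR, Benjamini-Hochberg). With DESeq2 the adjusted p was 0.0155, the lowest over the alternatives tried, and the highest was 0.839, without replicate 2 of shIGF2BP3. With each library left out in turn the log2 fold change stayed between -0.94 and -0.68, past both thresholds each time. The target called higher was FAM162A, a mitochondrial HIF-1 target linked to cell death, at 51.8 and 64.8 CPM in shCtrl and at 79.8 and 102 CPM in shIGF2BP3 (log2 fold change of 0.64, SE 0.19, unadjusted p of 0.0178). FAM162A overlaps another gene on the opposite strand and was no longer called with library totals, without replicate 1 of shCtrl or without replicate 2 of shIGF2BP3.

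Targets with related roles did not all lie on the same side of control. At an unadjusted p of at most 0.05, irrespective of fold, 3 of the 38 were lower (DDIT4, LOXL2 and KDM3A) and 4 were higher (LOX, FAM162A, PLOD2 and ERO1A), against 5.12% and 5.43% of all genes tested. The collagen crosslinking enzyme LOX, listed under angiogenic and secreted targets, was at 89.8 and 84.5 CPM in shCtrl and at 113 and 131 CPM in shIGF2BP3. In the collagen modification list, the lysyl hydroxylase PLOD2 was at 35.1 and 32.3 CPM against 43.5 and 56.4 CPM. The log2 fold changes of LOX and PLOD2 were 0.48 (unadjusted p of 0.0173) and 0.57 (unadjusted p of 0.0212). The related crosslinking enzyme LOXL2, which overlaps another gene on the same strand, had a log2 fold change of -0.45 (unadjusted p of 0.0304). The histone demethylase KDM3A had one of -0.42 (unadjusted p of 0.0437), and ERO1A, which drives disulfide bond formation, one of 0.53 (unadjusted p of 0.0412). Of these 7 genes, DDIT4 and FAM162A passed the 1.5-fold threshold and the other 5 did not, and all 7 had an adjusted p of 0.472 (edgeR, Benjamini-Hochberg).

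**Figure D4:**
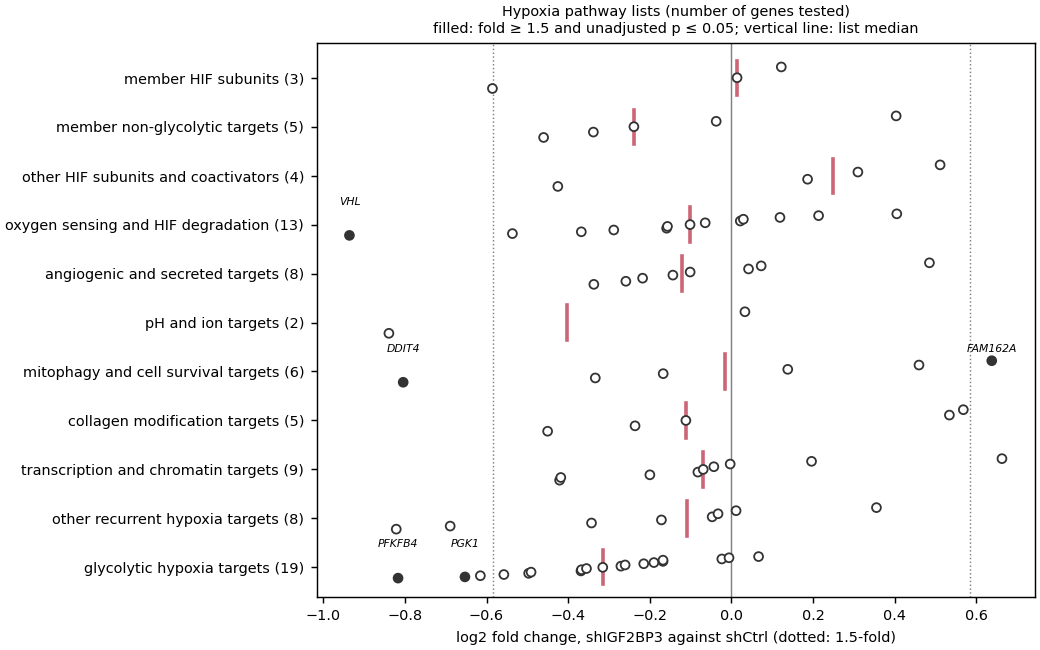
Each row is 1 list of HIF pathway genes, with the number tested in parentheses, and each circle is 1 gene placed by its log2 fold change of shIGF2BP3 against shCtrl. Filled circles passed a fold change of 1.5 with an unadjusted p of at most 0.05, and the red line is the list's median, at -0.24 for the 5 non-glycolytic member targets tested and -0.32 for the 19 glycolytic targets.

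The glycolytic hypoxia targets, a list of 21 with 19 tested, are set beside these for contrast and were not tested against them. Of the 19, 18 had a log2 fold change below 0, against 50.2% of all genes tested, and the median was -0.32. The list was chosen with earlier results of these data known, so its shares beside those of all genes are a description only. At the thresholds of the study 2 were called lower and 0 higher, against 2.78% and 2.54% of all genes. Both shIGF2BP3 libraries lay below both controls for 11 of them, against 23.5% of all genes. The genes called were PGK1, a glycolytic kinase that generates ATP, at 858 and 768 CPM against 575 and 459 CPM (log2 fold change of -0.65, SE 0.17, unadjusted p of 0.00939), and PFKFB4, which sets fructose 2,6-bisphosphate, at 4.02 and 5.61 CPM against 3.16 and 2.29 CPM (log2 fold change of -0.82, SE 0.30, unadjusted p of 0.0360). The adjusted p of both was 0.472 in the edgeR fit, and over the alternatives that of PGK1 ran from 0.0432 with DESeq2 to 0.994 without replicate 2 of shIGF2BP3. Without replicate 1 of shCtrl, or without replicate 2 of shIGF2BP3, PGK1 was no longer called, and without replicate 2 of either group neither was PFKFB4. The median of the 8 members, -0.14, lay between that of the glycolytic list and that of all genes. These 8 include 3 HIF subunits. For the 5 member targets outside glycolysis that were tested the median was -0.24, with 4 below 0 and 1 above. For the 38 further targets outside glycolysis it was -0.09. The differences between the lists were not tested.

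**Figure D5:**
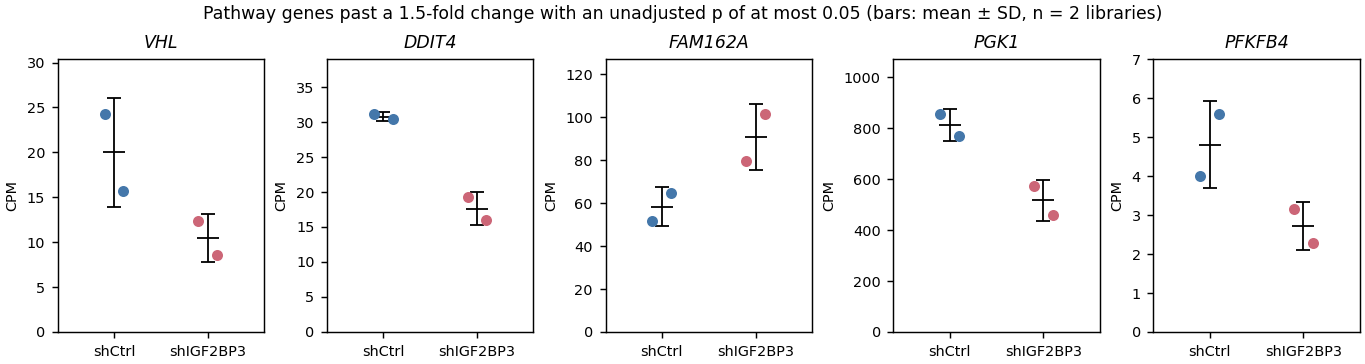
CPM (counts scaled to a common library size, linear axis from 0) in each library for the 5 HIF pathway genes outside the member list that passed a fold change of 1.5 with an unadjusted p of at most 0.05, with the mean ± SD of 2 libraries. In all 5 the groups do not overlap, with FAM162A higher and VHL, DDIT4, PGK1 and PFKFB4 lower in shIGF2BP3. The genes were picked by these same values, so the separation largely follows from that choice.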

How the data were processed

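The deposited data were whole-number estimated counts for each transcript, without normalization, and FPKM, which the authors had scaled for transcript length and library size. The submitters' processing notes name CASAVA, Trimmomatic, HISAT2, bedtools, FastQC and GRCh38, while the counter, the annotation and the use of strand are not given in the sources used here. The estimated counts and FPKM of 95139 transcripts were summed to 20263 genes. A symbol was assigned where an Ensembl gene and a protein-coding RefSeq gene (GRCh38.p14) were each other's best overlap, with at least 0.5 of their joint length shared and a lead of 0.2, which named 17761 genes. Of 114 listed symbols 109 were matched, and ALDOA, EDN1, MIR210HG, PDK1 and TF were not.

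Gene tests used edgeR 4.0.16 under R 4.3.3 (TMM, filterByExpr, glmQLFit, glmQLFTest, prior count 0.125) without pairing. The filter asked for about 10 counts, scaled to depth, in at least 2 libraries and for 15 counts in total. P-values were adjusted over all genes by the Benjamini-Hochberg method. The steps were tested on simulated data. Intervals are 95% intervals of the fit. Named genes were all members, VHL, EGLN1, HIF1AN, IGF2BP3 and every other listed gene past a fold change of 1.5 with an unadjusted p of at most 0.05, with transcripts of at least 10% of a member's FPKM. RBX1, USP20, LOX, PLOD2, LOXL2, KDM3A, ERO1A, TFRC, ZNF395, the coactivators and the markers were named after their values were seen. The members and lists were chosen with earlier results of these data known. Alternatives were DESeq2 1.42.0, edgeR's exact test, RLE factors, library totals with and without mitochondrial genes, other filters, transcript counts of 1 set to 0, limma 3.58.1 on log2 FPKM with a pseudocount of 1 (with and without a filter of FPKM 1 in 2 libraries) or 0.1 (with the filter), the replicate number as a block, a fold change of at least 2, and each library left out in turn. A lone library was then assumed to vary like the other group. With 2 libraries a group, precision was limited by replicate spread more than by depth for genes with many counts. Low counts also limited NDRG1, at 10 to 34 counts, and CA9 and EGLN3, at 0 to 2 counts. An exact permutation test of a single gene could not go below p = 0.333. Counting limits cover counting error only.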

Additional observations from a re-analysis of the deposited data

How the results depend on the processing

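No member was called lower or higher under 13 alternatives, and with each library left out in turn the count was 0 to 1 in either direction (VEGFA lower and ADM higher without replicate 1 of shCtrl). No member had an adjusted p under 0.05 under any alternative that gave one. Over the same fits with a library left out, the members' median log2 fold change ranged from -0.18 to 0.11, and under the other alternatives from -0.22 to -0.01. The smallest of these came from DESeq2 and from the fit without a low-count filter, which take in all 10 members. BNIP3 reached an unadjusted p of 0.0382 in the unfiltered limma fit to log2(FPKM + 1), short of the fold threshold. Other non-glycolytic targets called lower numbered 2 with library totals, with library totals without mitochondrial genes and with at least 10 counts in every library (DDIT4 and TMEM45A), 0 at a fold change of 2, and 1 to 2 with a library left out. Those called higher numbered 0 with library totals and at a fold change of 2, and 0 to 4 with a library left out. IGF2BP3 passed the fold threshold with library totals (-0.62) and in the limma fits to FPKM with a pseudocount of 1, filtered or not (-0.60), or 0.1 (-0.68), and ranged from -0.69 to -0.36 with a library left out. The sign changed for HIF1A with library totals (-0.0729), library totals without mitochondrial genes (-0.0211) and limma at a pseudocount of 1, filtered or not (-0.0473), and 0.1 (-0.0493), and for HIF1AN in the same order (-0.0527, -0.00291, -0.114 and -0.138). The all-gene median was -0.08 with library totals. With a library left out, the range was -0.15 to 0.21 for HIF1A, -0.0465 to 0.11 for HIF1AN, -1.30 to 0.28 for NDRG1, -0.20 to 0.15 for P4HA1, -0.17 to 0.0506 for EGLN1, -1.004 to 0.43 for VEGFA, -0.065 to 1.11 for ADM and -0.0566 to 0.29 for ARNT. PFKFB4 was not called with the replicate block, DESeq2 or limma on log2(FPKM + 1), nor VHL in the unfiltered limma fit to log2(FPKM + 1). Over all genes, 485 were lower and 195 higher with library totals and 335 and 125 with filtered limma on log2(FPKM + 1). The main edgeR fit used here gave 372 lower and 340 higher. Without replicate 1 of shIGF2BP3 they were 872 and 680. The cause of these changes was not tested. The numbers of the replicates are only shared labels (deviations of same-numbered libraries correlated at 0.0218). The replicate block left 0 members called, with a median of -0.13 and ADM at 0.48 (unadjusted p of 0.0742), and gave 418 lower and 354 higher genes over all genes.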
